A study of Mus musculus with 21 samples.

Results

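A group of 10 genes of the VEGF and angiopoietin pathways was followed through the regrowth of the mouse right lung. The group held the ligands Vegfa, Pgf, Angpt1 and Angpt2, the receptors Kdr, Flt1, Nrp1 and Tek, the endothelial gene Esm1 and the kinase gene Sphk1. They were chosen by name, as every probe set annotated with 1 of these symbols, keeping the brightest probe set of a gene. Each symbol had exactly 1 such probe set, so 10 of the 19938 genes measured were members.

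The animals were male C57BL/6 mice whose left lung had been removed (left pneumonectomy, PNX), an operation after which the remaining right lung grows. The right lung was sampled on day 0, before any surgery, on days 3, 7, 14, 28 and 56 after PNX, and on day 56 after sham surgery, with no PNX. Each of the 7 conditions had 3 arrays, 1 each for the medial lobe, the cardiac lobe and the right lung as a whole, 21 arrays in all. The labels do not say how many animals each array represents or whether 1 animal gave several regions, so the p-values measure the spread between these arrays, which may be technical. With 1 array per condition and region, that spread also holds any disagreement between the regions in how they changed. No sham-operated lung of an early day was analysed here. Comparisons against sham therefore set days 3 and 7 after surgery against day 56.

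VEGF-A, the product of Vegfa, is made in the lung largely by alveolar epithelium and drives growth, survival and permeability of blood vessels through KDR (VEGFR2), with NRP1 as co-receptor. FLT1 (VEGFR1) binds VEGF-A and placental growth factor, the product of Pgf, tightly and signals weakly, so that it limits the VEGF-A left for KDR. Angiopoietin-1 from cells around the vessel keeps the endothelium quiet through its receptor TIE2, encoded by Tek, whereas angiopoietin-2 is released by endothelial cells and mostly counteracts it. Esm1 encodes endocan, a proteoglycan of endothelial tip cells that VEGF-A induces, and Sphk1 encodes the kinase that makes sphingosine 1-phosphate (S1P), a lipid that acts on endothelial and immune cells.

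All values are log2 intensities after robust multi-array averaging (RMA), 1 per probe set and array, so that a difference of 1 is a 2-fold one. Array medians lay between 5.98 and 6.18 and correlations between arrays between 0.963 and 0.996. Brightness differs between probe sets for reasons other than RNA amount, so levels were compared between samples of a gene and not between genes. The mean of 59 small RNA genes was taken as a rough mark of short RNA on an array, which was not tested. This mean was 6.90 to 7.32 in the medial lobe and 7.77 to 9.84 in the whole lung. In the cardiac lobe it was 8.15 on PNX day 7 and 6.90 to 7.48 on the other arrays. The PNX day 7 cardiac array and the PNX day 56 whole lung array, which had the value of 9.84, also had the narrowest spread of values of their regions, with interquartile ranges of 3.34 and 3.13. Calls that changed without these arrays are given both ways.

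Early after PNX the members were mostly lower than at either reference, and no member was called higher. Calls required an adjusted p (Benjamini-Hochberg) under 0.05 in a limma fit over all genes with terms for condition and region. On PNX day 3, 4 of 10 members (Vegfa, Angpt2, Esm1 and Sphk1) fell against day 0, where 2.73% of all genes were called lower and 3.97% higher. On PNX day 7 those 4 members again fell against day 0, beside 4.97% of all genes lower and 3.73% higher. Against sham, 7 members fell on PNX day 3, beside 3.21% of all genes lower and 4.46% higher. On PNX day 7, 8 members fell against sham, beside 2.15% of all genes lower and 2.37% higher. The median difference of the 10 members was -0.46 on day 3 and -0.43 on day 7 against day 0, where the medians of all genes were 0.01 and 0.03. Against sham the members' medians were -0.70 and -0.73, where those of all genes were within 0.01 of 0. Both references were set against the same PNX arrays, so the 2 sets of comparisons are not independent of each other. In whole tissue, fewer of the cells that express a member and less RNA per cell cannot be told apart.

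The counts moved with single arrays. Against day 0, the PNX day 3 count was 7 without the day 0 medial array, and the PNX day 7 count was 2 without the day 0 cardiac, the PNX day 7 cardiac or the day 0 whole lung array. Against sham, the PNX day 3 count was 3 without the PNX day 3 whole lung array and 4 without the sham cardiac array, and the PNX day 7 count was 5, 2, 1 and 3 without the PNX day 7 medial, PNX day 7 cardiac, sham cardiac and sham whole lung array in turn. Without the region term, 1 member fell on each day against day 0 and 0 against sham.

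**Figure D1:**
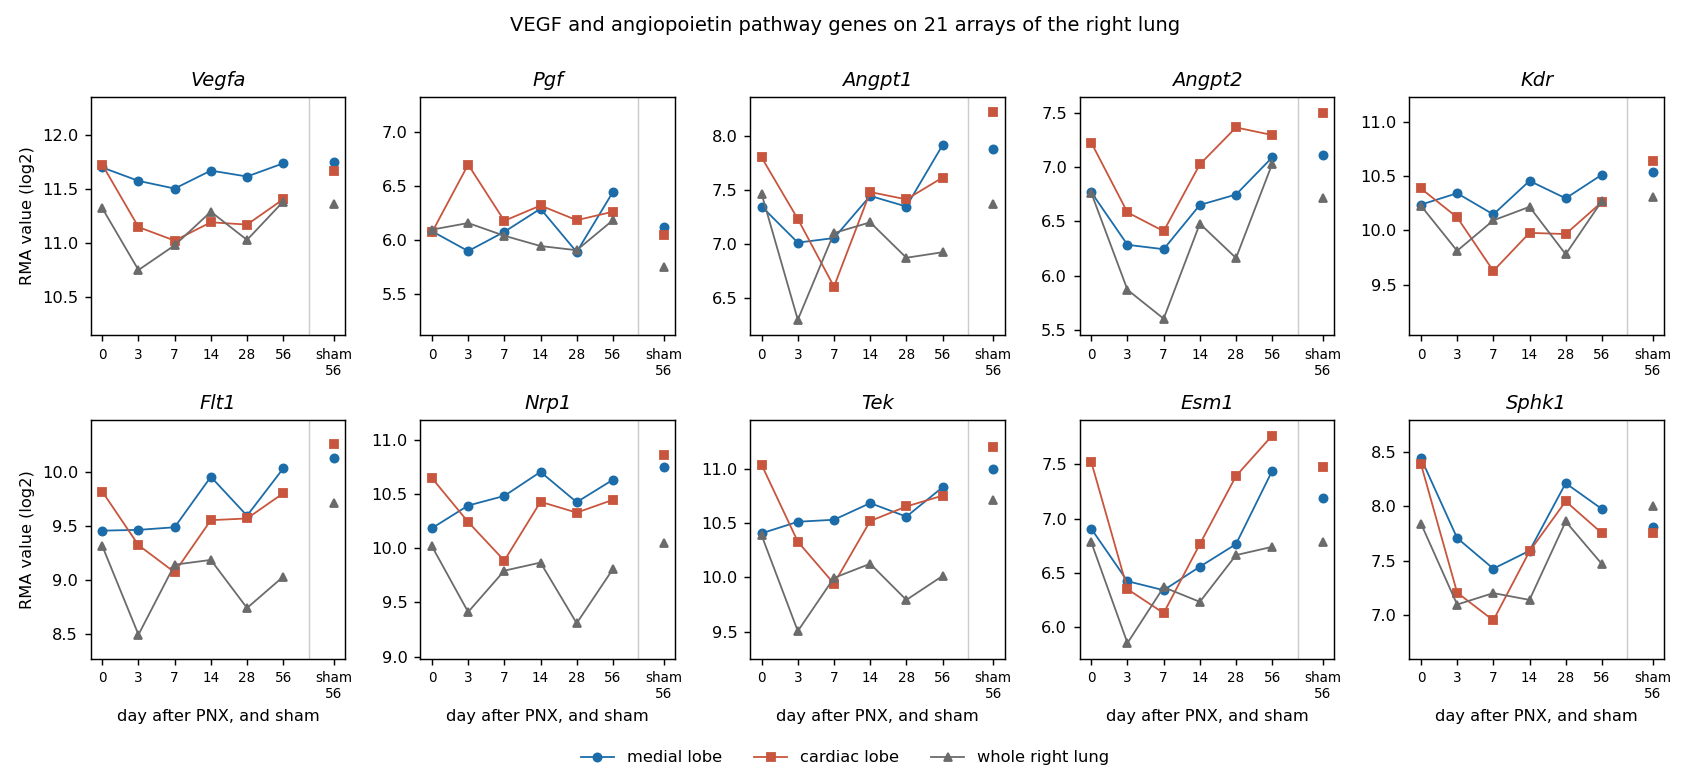
RMA value (log2, vertical axis) of each member on all 21 arrays, by day after PNX (day 0 is before surgery) and, right of the grey line, on sham day 56; each point is 1 array and colours and shapes mark the 3 regions. All panels span the same range of log2 values, so slopes can be compared. Angpt2, Esm1 and Sphk1 dip on days 3 and 7 in all 3 regions, whereas in the medial lobe Flt1 stays level and Nrp1 and Tek lie slightly above day 0. Those medial Flt1, Nrp1 and Tek values lie below the sham medial array.

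Of the ligands, Angpt2 gave the steadiest fall. Its values in the medial lobe, cardiac lobe and whole lung were 6.28, 6.58 and 5.87 on PNX day 3 and 6.24, 6.41 and 5.60 on PNX day 7, against 6.77, 7.23 and 6.76 on day 0 and 7.11, 7.498 and 6.72 on sham day 56. Every array of days 3 and 7 was below every day 0 and every sham array. Against day 0 Angpt2 fell by 0.67 ± 0.13 on day 3 (standard error, SE, of the fitted difference; adjusted p = 0.00547) and by 0.83 ± 0.13 on day 7 (adjusted p = 0.00208). Against sham it fell by 0.86 ± 0.13 on day 3 (adjusted p = 0.000729) and by 1.02 ± 0.13 on day 7, a 2.03-fold difference (adjusted p = 0.000578). None of these 4 calls was lost when any 1 of the arrays compared was left out.

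Vegfa fell less and with overlap between groups. Its values in the medial lobe, cardiac lobe and whole lung were 11.57, 11.15 and 10.75 on PNX day 3 and 11.50, 11.02 and 10.98 on PNX day 7, against 11.70, 11.72 and 11.32 on day 0 and 11.75, 11.67 and 11.37 on sham day 56. Each region was lower than the same region of day 0 and of sham on both days, but the medial lobe changed least and its early values lay above the day 0 whole lung. The difference from day 0 was -0.42 ± 0.11 on day 3 (adjusted p = 0.0286) and -0.41 ± 0.11 on day 7 (adjusted p = 0.0311). The difference from sham was -0.44 ± 0.11 on day 3 (adjusted p = 0.0211) and -0.43 ± 0.11 on day 7 (adjusted p = 0.0376). The call on day 3 against day 0 was lost without either cardiac or either whole lung array (differences of -0.51 to -0.31 over the 6 arrays left out in turn), and on day 7 without either cardiac or the day 0 whole lung array (-0.50 to -0.30). Against sham it was lost on day 3 without either cardiac or either whole lung array (-0.52 to -0.33), and on day 7 without either cardiac, the PNX medial or the sham whole lung array (-0.49 to -0.35).

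Angpt1 was lower early in every region, and passed the test against sham only. Its values in the medial lobe, cardiac lobe and whole lung were 7.01, 7.23 and 6.30 on PNX day 3 and 7.06, 6.61 and 7.10 on PNX day 7, against 7.35, 7.80 and 7.46 on day 0 and 7.88, 8.22 and 7.37 on sham day 56. The early arrays did not overlap those of either reference, yet the region with the lowest value was the whole lung on day 3 and the cardiac lobe on day 7. Against sham Angpt1 fell by 0.97 ± 0.21 on day 3 (adjusted p = 0.00896) and by 0.90 ± 0.21 on day 7 (adjusted p = 0.0244). Against day 0 the differences were -0.69 ± 0.21 (adjusted p = 0.0665) and -0.61 ± 0.21 (adjusted p = 0.0787). The calls against sham were lost on day 3 without the sham cardiac or PNX whole lung array (-1.10 to -0.82), and on day 7 without either medial or either cardiac array (-1.17 to -0.62).

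Pgf stood apart from the other ligands. Its values in the medial lobe, cardiac lobe and whole lung were 5.90, 6.70 and 6.16 on PNX day 3 and 6.08, 6.18 and 6.04 on PNX day 7, against 6.08, 6.07 and 6.10 on day 0 and 6.12, 6.05 and 5.75 on sham day 56. Only the day 3 cardiac array lay well above the rest. The difference from day 0 was 0.17 ± 0.14 on day 3 and 0.01 ± 0.14 on day 7 (adjusted p = 0.570 and 0.947), and Pgf had the only positive differences among the 10 members in the 4 early comparisons.

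**Figure D2:**
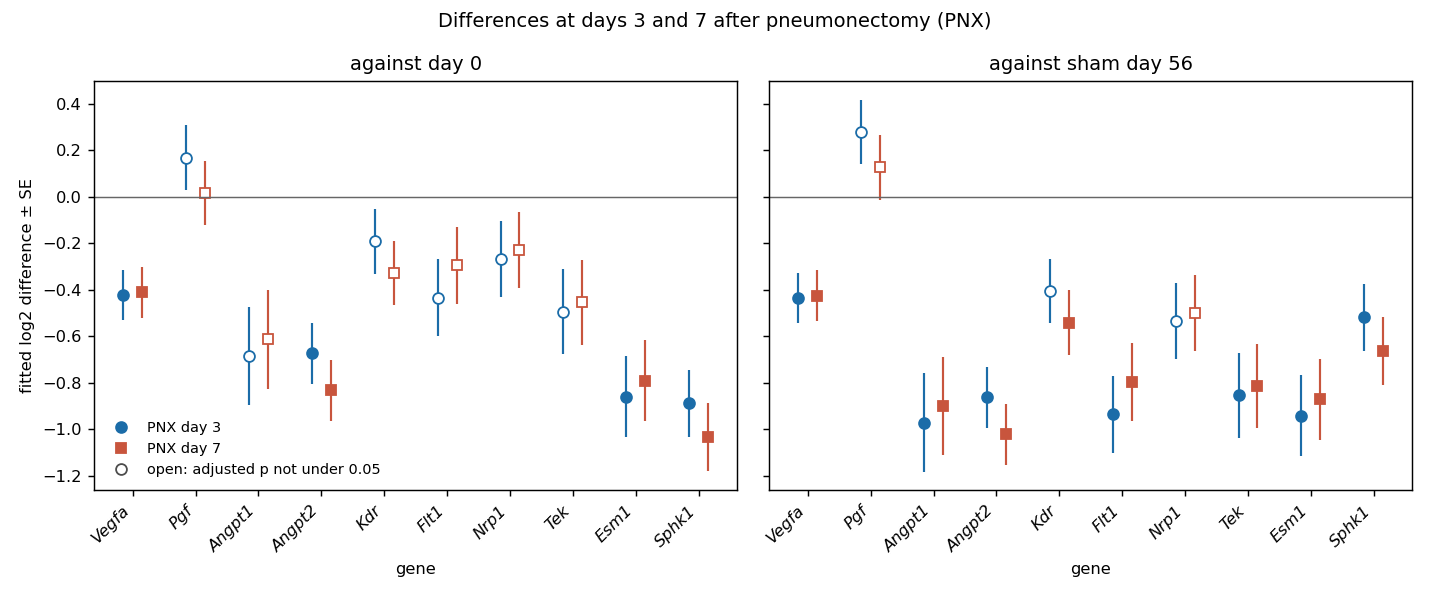
Fitted log2 difference of each member (vertical axis, ± SE) on PNX day 3 (circles) and PNX day 7 (squares), against day 0 in the left panel and against sham day 56 in the right panel; filled symbols have an adjusted p under 0.05. Filled symbols are all below 0, with 4 members on each day on the left and 7 and 8 on the right, and Pgf alone lies above 0.

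None of the 4 receptors was called against day 0 on day 3 or day 7. On PNX day 3 Tek and Flt1 fell against sham, and on PNX day 7 Tek, Flt1 and Kdr did. Nrp1 was not called in any comparison of conditions.

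Tek had values of 10.51, 10.33 and 9.50 in the medial lobe, cardiac lobe and whole lung on PNX day 3 and 10.53, 9.94 and 9.996 on PNX day 7, against 10.41, 11.04 and 10.39 on day 0 and 10.998, 11.20 and 10.72 on sham day 56. The early arrays lay wholly below sham but overlapped day 0, since the medial lobe was above its day 0 value on both days. Tek fell against sham by 0.85 ± 0.18 on day 3 (adjusted p = 0.00779) and by 0.81 ± 0.18 on day 7 (adjusted p = 0.0178), and differed from day 0 by -0.50 ± 0.18 and -0.45 ± 0.18 (adjusted p = 0.128 and 0.117). The calls against sham were lost on day 3 without the PNX whole lung array (-0.97 to -0.72 over the arrays left out), and on day 7 without either cardiac or the sham whole lung array (-0.94 to -0.58).

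Flt1 followed Tek closely. Its values in the medial lobe, cardiac lobe and whole lung were 9.46, 9.32 and 8.50 on PNX day 3 and 9.49, 9.07 and 9.14 on PNX day 7, against 9.46, 9.82 and 9.31 on day 0 and 10.13, 10.26 and 9.71 on sham day 56. The medial lobe was level with day 0 on both days, and every early array was below every sham array. Flt1 fell against sham by 0.94 ± 0.17 on day 3 (adjusted p = 0.00213), a call kept with any 1 array left out. On day 7 it fell against sham by 0.80 ± 0.17 (adjusted p = 0.0123), a call lost without either cardiac or the sham whole lung array (-0.97 to -0.62). Sham was itself above day 0 in all 3 regions, by 0.50 ± 0.17 (adjusted p = 0.286).

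Kdr, the main signalling receptor for VEGF-A, had the smallest day 3 differences of the receptors. Its values in the medial lobe, cardiac lobe and whole lung were 10.34, 10.12 and 9.81 on PNX day 3 and 10.15, 9.63 and 10.09 on PNX day 7, against 10.24, 10.39 and 10.23 on day 0 and 10.54, 10.64 and 10.31 on sham day 56. The day 7 arrays lay below all arrays of both references, by a small margin outside the cardiac lobe. Kdr fell against sham on day 7 by 0.54 ± 0.14 (adjusted p = 0.0371), and its difference from day 0 that day was -0.33 ± 0.14 (adjusted p = 0.133). The call was lost without either medial, either cardiac or the sham whole lung array (-0.68 to -0.39).

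Nrp1 had values of 10.39, 10.24 and 9.41 in the medial lobe, cardiac lobe and whole lung on PNX day 3 and 10.48, 9.89 and 9.79 on PNX day 7, against 10.18, 10.65 and 10.02 on day 0 and 10.75, 10.86 and 10.05 on sham day 56. The medial lobe was above its day 0 value on both days and the other regions were below theirs. The difference from sham was -0.54 ± 0.16 on day 3 (adjusted p = 0.0588) and -0.50 ± 0.16 on day 7 (adjusted p = 0.102).

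The PNX day 7 cardiac array, whose small RNA level stood apart, gave the lowest value of its lobe for every member but Pgf. Without it and the PNX day 56 whole lung array, 3 members fell on day 7 against sham: Angpt2 by 0.999 ± 0.14, Esm1 by 0.64 ± 0.13 and Flt1 by 0.63 ± 0.16 (adjusted p = 0.00150, 0.0160 and 0.0482). Kdr, Tek, Angpt1, Vegfa and Sphk1 were then not called against sham on day 7 (adjusted p = 0.178, 0.0811, 0.0807, 0.130 and 0.0783). Against day 0, Angpt2, Esm1 and Sphk1 still fell on day 7, by 0.81 ± 0.14, 0.56 ± 0.13 and 0.91 ± 0.15, while Vegfa at -0.35 ± 0.12 did not pass (adjusted p = 0.105). On PNX day 3, Angpt1 and Tek joined the 4 members that fell against day 0 (adjusted p = 0.0102 and 0.0387), 6 in all. Against sham 9 members then fell on day 3. Kdr and Nrp1 were newly called there, at -0.41 ± 0.12 and -0.54 ± 0.14 (adjusted p = 0.0389 and 0.0173). The small RNA level's part in these differences was not tested.

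The region 250 bases before to 50 bases after the transcript start is shown for the 2 receptors whose values ran most closely together, Flt1 and Tek, for Kdr as the other VEGF-A receptor, and for Esm1 as an endothelial gene that fell in every region. The sequences are from RefSeq on GRCm38.p6, where 8 of 10 members had an entry, and each of these 4 genes has 1 start in the table. They read 5′ to 3′ on the gene's strand, and capitals mark GGAA or TTCC, the core bound by ETS factors (a family active in endothelium) on either strand. Flt1 lies at chr5:147725962-147726261 on the minus strand, Tek at chr4:94739039-94739338 on the plus strand, Kdr at chr5:75978406-75978705 on the minus strand and Esm1 at chr13:113209409-113209708 on the plus strand.
Flt1: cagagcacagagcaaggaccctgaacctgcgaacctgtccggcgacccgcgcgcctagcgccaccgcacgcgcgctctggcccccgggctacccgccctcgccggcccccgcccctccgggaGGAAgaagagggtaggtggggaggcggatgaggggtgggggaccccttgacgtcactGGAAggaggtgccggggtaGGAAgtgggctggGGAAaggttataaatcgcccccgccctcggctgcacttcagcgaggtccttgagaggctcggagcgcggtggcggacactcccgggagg
Tek: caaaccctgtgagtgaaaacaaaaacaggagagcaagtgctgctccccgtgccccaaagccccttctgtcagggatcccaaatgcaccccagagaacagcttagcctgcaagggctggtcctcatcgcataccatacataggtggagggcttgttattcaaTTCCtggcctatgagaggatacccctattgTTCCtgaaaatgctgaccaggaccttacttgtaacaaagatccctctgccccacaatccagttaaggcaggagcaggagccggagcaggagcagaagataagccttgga
Kdr: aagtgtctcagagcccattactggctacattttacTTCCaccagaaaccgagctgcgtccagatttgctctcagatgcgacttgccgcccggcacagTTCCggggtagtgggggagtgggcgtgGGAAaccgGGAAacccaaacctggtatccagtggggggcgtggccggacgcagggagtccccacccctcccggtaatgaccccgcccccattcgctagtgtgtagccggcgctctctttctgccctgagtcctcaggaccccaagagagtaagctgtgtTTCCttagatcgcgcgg
Esm1: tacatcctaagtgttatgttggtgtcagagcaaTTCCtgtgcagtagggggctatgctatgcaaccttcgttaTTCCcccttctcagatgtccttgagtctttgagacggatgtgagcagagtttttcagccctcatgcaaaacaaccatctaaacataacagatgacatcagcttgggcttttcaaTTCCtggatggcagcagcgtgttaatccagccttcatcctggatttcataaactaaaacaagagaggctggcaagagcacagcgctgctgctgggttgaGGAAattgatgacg
Flt1 held 4 such cores, Tek 2, Kdr 5 and Esm1 4, beside a share of 96.0% of all 32851 promoters of that length with at least 1. The hypoxia response core, ACGTG or GCGTG on either strand, occurred 2 times in Kdr, 1 time each in Flt1 and Esm1 and 0 times in Tek, and in 43.8% of all promoters, and none of these matches overlapped an ETS core. The GC content was 70.7% in Flt1, 60.7% in Kdr, 52.0% in Tek and 46.3% in Esm1. These are matches of letters in 1 window, not measured binding.

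Sphk1 and Esm1 had the largest falls against day 0 on day 3, and Sphk1 on day 7. Esm1 had values of 6.42, 6.35 and 5.85 in the medial lobe, cardiac lobe and whole lung on PNX day 3 and 6.34, 6.13 and 6.37 on PNX day 7, against 6.91, 7.52 and 6.78 on day 0 and 7.19, 7.47 and 6.79 on sham day 56. No early array reached any day 0 or sham array. Esm1 fell against day 0 by 0.86 ± 0.17 on day 3 (adjusted p = 0.00669) and by 0.79 ± 0.17 on day 7 (adjusted p = 0.0138). Against sham it fell by 0.94 ± 0.17 (adjusted p = 0.00278) and by 0.87 ± 0.17 (adjusted p = 0.00967). Both day 3 calls were kept with any 1 array left out, whereas that of day 7 was lost against day 0 without either cardiac or the day 0 whole lung array (-1.01 to -0.54), and against sham without the sham cardiac array, which left a difference of -0.84 (adjusted p = 0.0602).

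Sphk1 had values of 7.71, 7.21 and 7.10 in the medial lobe, cardiac lobe and whole lung on PNX day 3 and 7.43, 6.95 and 7.20 on PNX day 7, against 8.44, 8.39 and 7.84 on day 0 and 7.81, 7.76 and 7.9999 on sham day 56. Every early array was below every array of both references. It fell against day 0 by 0.89 ± 0.15 on day 3 (adjusted p = 0.00143) and by 1.03 ± 0.15 on day 7, a 2.05-fold difference (adjusted p = 0.00108), and both calls were kept with any 1 array left out. Against sham the fall was smaller, 0.52 ± 0.15 on day 3 (adjusted p = 0.0374) and 0.66 ± 0.15 on day 7 (adjusted p = 0.0157). These calls against sham were lost on day 3 without either cardiac or either whole lung array (-0.66 to -0.33), and on day 7 without either cardiac or the sham whole lung array (-0.80 to -0.48).

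**Figure D3:**
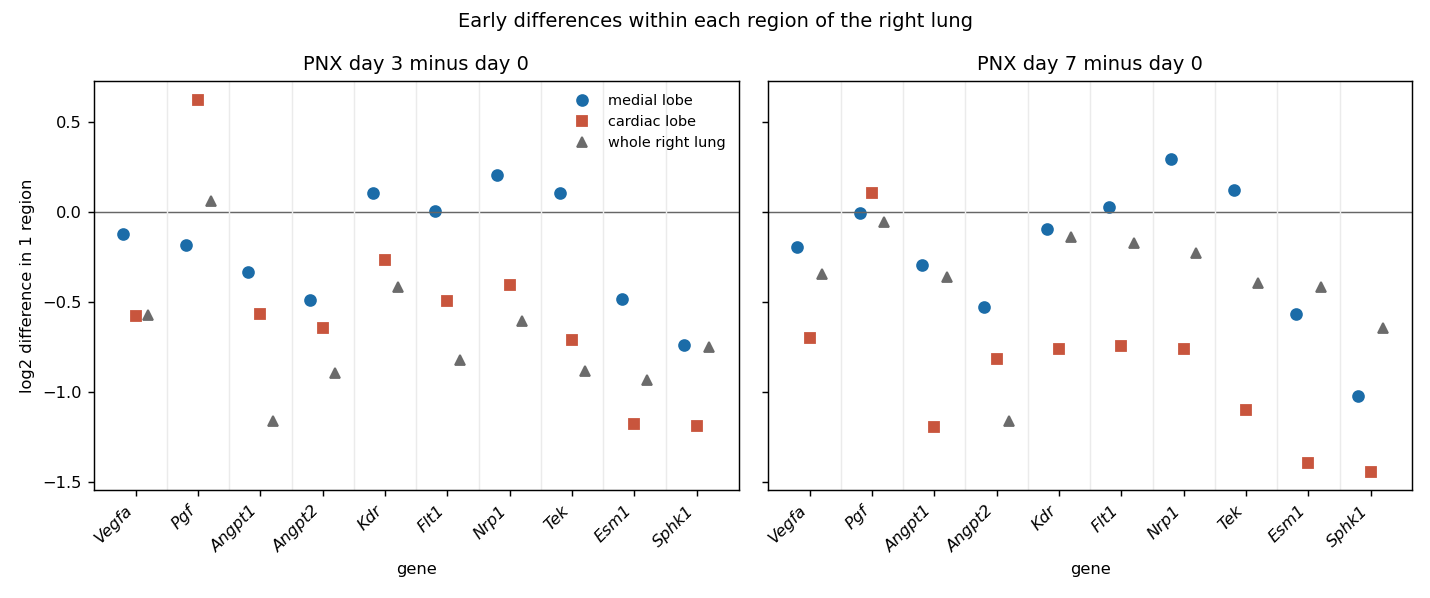
Log2 difference of PNX day 3 (left) and PNX day 7 (right) from day 0 within each region (vertical axis), 1 point per member and region, so each point compares 1 array with 1 array. Angpt2, Esm1, Sphk1, Vegfa and Angpt1 lie below 0 in all 3 regions on both days, while the medial lobe lies at or above 0 for Flt1, Nrp1 and Tek.

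The receptors' early differences from day 0 lay lower in the cardiac than in the medial lobe. On day 3, Kdr, Flt1, Nrp1 and Tek differed from day 0 by -0.27, -0.49, -0.40 and -0.71 in the cardiac lobe, against 0.11, 0.01, 0.21 and 0.11 in the medial lobe. On day 7 they differed by -0.76, -0.74, -0.76 and -1.10 in the cardiac lobe, against -0.09, 0.03, 0.30 and 0.13 in the medial lobe. Against sham, the medial lobe was lower too: Kdr, Flt1, Nrp1 and Tek differed by -0.20, -0.67, -0.36 and -0.49 on day 3. On day 7 those medial differences from sham were -0.395, -0.64, -0.27 and -0.47. The cardiac lobe again lay lower, at -0.52, -0.93, -0.61 and -0.87 on day 3 and -1.01, -1.18, -0.97 and -1.26 on day 7. The difference of the early response (days 3 and 7 minus day 0 and sham) between the cardiac and the medial lobe was tested on the means of each phase of the course, and 0 of 10 members were called in limma, beside 0% of all genes, with 3 at an unadjusted p under 0.05. These were Tek at -0.80 ± 0.28, Nrp1 at -0.66 ± 0.28 and Vegfa at -0.43 ± 0.16, each with an adjusted p of 0.964. The difference was below 0 for 9 of 10 members, with a median of -0.50 beside -0.02 over all genes. The medians of the endothelial, aerocyte and alveolar type I markers in that comparison were -0.41, -0.49 and -0.39, and their part in the members' values was not tested. Without the PNX day 7 cardiac and PNX day 56 whole lung arrays, the members' median was -0.34, with 0 called in limma and 2 at an unadjusted p under 0.05, Vegfa at -0.36 ± 0.17 and Pgf at 0.75 ± 0.24 (adjusted p = 0.990 and 0.844). Between the whole lung and the mean of the lobes, 0 members were called in limma, beside 0% of all genes, with 0 at an unadjusted p under 0.05.

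From day 14 on, few members were called. On PNX day 14, Sphk1 alone was called against day 0, where 0.707% of all genes were lower: its values were 7.59, 7.59 and 7.14 in the medial lobe, cardiac lobe and whole lung, and it fell by 0.79 ± 0.15 (adjusted p = 0.0113). This call was lost without either medial, the day 0 cardiac or the PNX whole lung array (-0.91 to -0.68). Esm1 was also below day 0 in all 3 regions, with values of 6.56, 6.77 and 6.23 and a difference of -0.55 ± 0.17 (adjusted p = 0.176). Without the PNX day 7 cardiac and PNX day 56 whole lung arrays, Esm1 was called at the same difference (SE 0.11, adjusted p = 0.0146), as was Sphk1 (adjusted p = 0.00466). Compared with PNX day 7, Angpt2 was the only member called on PNX day 14, where 0.216% of all genes were higher. It rose by 0.63 ± 0.13 (adjusted p = 0.0423), with values of 6.65, 7.03 and 6.48 in the medial lobe, cardiac lobe and whole lung that did not overlap those of day 7. That call was lost with any 1 of the 6 arrays left out (0.55 to 0.73) and without the PNX day 7 cardiac and PNX day 56 whole lung arrays (0.61 ± 0.14, adjusted p = 0.0758), and all 10 members had positive differences between these days.

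The remaining steps held no call. Between PNX days 7 and 3, limma called 0 members, beside 0.0652% of all genes, with 0 at an unadjusted p under 0.05 and differences of -0.16 to 0.14. Between PNX days 28 and 14 it called 0, beside 0.145% of all genes, with 2 at an unadjusted p under 0.05. These were Sphk1 at 0.60 ± 0.15 and Esm1 at 0.42 ± 0.17, each higher in 3 of 3 regions (adjusted p = 0.151 and 0.636), and the other members lay between -0.31 and 0.04. Between PNX days 56 and 28 it called 0, beside 0% of all genes, with 5 at an unadjusted p under 0.05, of which Angpt2 had the smallest p at 0.38 ± 0.13 (adjusted p = 0.827). The members ran from -0.31 for Sphk1 to that value.

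Against day 0, limma called 0 members on PNX day 28, beside 0% of all genes, with 1 at an unadjusted p under 0.05, although all 10 differences were below 0 (median -0.25), from -0.33 for Angpt1 to -0.09 for Pgf. The member with that p was Vegfa, at -0.31 ± 0.11 (adjusted p = 0.587). Sphk1 on that day was 8.21, 8.05 and 7.86 in the medial lobe, cardiac lobe and whole lung, within the day 0 range. On PNX day 56 it called 0 members against day 0, beside 0.0903% of all genes, with 1 at an unadjusted p under 0.05. That member was Sphk1, with values of 7.98, 7.75 and 7.47 and a difference of -0.49 ± 0.15 (adjusted p = 0.241). Esm1 was 7.44, 7.77 and 6.74 on PNX day 56, with a difference from day 0 of 0.25 ± 0.17 (adjusted p = 0.463), so its mean of 7.32 ± 0.52 (SD, n = 3) stood beside 7.07 ± 0.40 on day 0 (SD, n = 3). Without the PNX day 56 whole lung and PNX day 7 cardiac arrays that difference was 0.39 ± 0.13 (adjusted p = 0.435), and limma still called 0 members on PNX day 56 against day 0 or sham.

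Sham lungs lay somewhat above day 0 lungs for the receptors, short of the test. Sham day 56 against day 0 had 0 members called in limma, beside 0.381% of all genes, with 2 at an unadjusted p under 0.05: Flt1 at 0.50 ± 0.17 and Sphk1 at -0.37 ± 0.15 (adjusted p = 0.286 and 0.412). Tek, Nrp1 and Kdr were above day 0 in 3 of 3 regions, by 0.36 ± 0.18, 0.27 ± 0.16 and 0.21 ± 0.14 (adjusted p = 0.575, 0.665 and 0.694). Against sham, the later PNX days had 0 members called in limma: 0 on day 14 beside 0.0652% of all genes, 0 on day 28 beside 0.186% and 0 on day 56 beside 0.336%. At an unadjusted p under 0.05 the counts were 5, 7 and 3 members. Without the PNX day 7 cardiac and PNX day 56 whole lung arrays, Esm1 was called lower than sham on PNX day 14 (-0.63 ± 0.11, adjusted p = 0.0379) and Flt1 on PNX day 28 (-0.73 ± 0.14, adjusted p = 0.0319). On PNX day 28, Flt1 was 9.59, 9.57 and 8.74 in the medial lobe, cardiac lobe and whole lung, below every sham array, with a difference of -0.73 ± 0.17 (adjusted p = 0.120). On PNX day 56 the Flt1 difference from sham was -0.41 ± 0.17 and that of Tek -0.44 ± 0.18 (adjusted p = 0.548 and 0.567). Pgf on that day had values of 6.44, 6.26 and 6.18 in the medial lobe, cardiac lobe and whole lung of PNX mice, against 6.12, 6.05 and 5.75 in sham mice. The groups did not overlap, and the difference was 0.32 ± 0.14 (adjusted p = 0.575).

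Across all 7 conditions at once, the moderated F test called 6 of 10 members, beside 7.76% of all genes. They were Angpt2 (adjusted p = 0.000329), Sphk1 (0.00139), Esm1 (0.00182), Flt1 (0.0201), Vegfa (0.0361) and Angpt1 (0.0470), while Tek missed the threshold at 0.0517. The count was 3 without the sham cardiac, the sham whole lung or the PNX day 3 whole lung array, and 1 without the region term.

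Most members were higher in the lobes than in the whole lung. Averaged over the 7 conditions, 8 of 10 members were higher in the mean of the lobes than in the whole lung, where 20.3% of all genes were. Nrp1 differed by 0.71 ± 0.09, Flt1 by 0.59 ± 0.09, Tek by 0.56 ± 0.10 and Angpt2 by 0.50 ± 0.08 (adjusted p = 0.000141, 0.000571, 0.00134 and 0.000330), each with the lobes higher in 7 of 7 conditions. Esm1, Angpt1, Vegfa and Sphk1 differed by 0.44, 0.42, 0.33 and 0.26, and Kdr and Pgf were not called. The same 8 members were called without the PNX day 7 cardiac and PNX day 56 whole lung arrays. The endothelial markers were also higher in the lobes, 17 of 20 by the test, and the small RNA level was higher in the whole lung arrays. With each array centred on its endothelial markers, where the median of all genes was -0.41, 2 of these 8 members, Nrp1 and Flt1, were still called higher (0.29 ± 0.07 and 0.17 ± 0.07). Angpt2, Tek, Esm1 and Angpt1 were then at 0.09, 0.15, 0.02 and 0.00, none of them called. Vegfa and Sphk1 were at -0.09 and -0.16, also not called. Kdr and Pgf were called lower in the lobes (-0.27 ± 0.07 and -0.24 ± 0.09), yet both lay above the median of all genes. The share of all genes called on that scale was not counted, so these calls do not set Kdr and Pgf apart from other genes. The part of small RNA in the difference was not tested. The Angpt1 call was lost without the PNX day 56 or sham whole lung array (0.35 to 0.54), and the Sphk1 call without the whole lung array of day 0 or of PNX day 3, 14, 28 or 56 (0.21 to 0.34). The cardiac and the medial lobe had 0 members called apart in limma, beside 0.0903% of all genes, with 5 at an unadjusted p under 0.05, of which Vegfa was lower in the cardiac lobe by -0.32 ± 0.07 and Angpt2 higher by 0.36 ± 0.09 (adjusted p = 0.148 and 0.169).

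Other genes of the pathway were read beside the members. Among 15 further VEGF and angiopoietin signalling genes, 1 rose and 0 fell on PNX day 3 against day 0: Shb, an adaptor of KDR, by 0.36 ± 0.09. On PNX day 7, 0 rose and 1 fell: Foxo1, a transcription factor that TIE2 signalling restrains and that drives Angpt2, by 0.56 ± 0.16 (adjusted p = 0.0384). Against sham, 1 rose and 4 fell on day 3. Dok2, an adaptor of TIE2, rose by 0.89 ± 0.24, while Ptprb, the phosphatase that turns TIE2 off, fell by 0.81 ± 0.20 and Tie1, the partner of TIE2, by 0.73 ± 0.19. On day 7, 0 of the 15 passed against sham. The median of the 15 against day 0 was -0.04 on day 3 and 0.10 on day 7.

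The genes around Sphk1 did not pass with it. Of 10 other enzymes, transporters and receptors of S1P, 0 passed in limma against day 0 on either day and 1 rose against sham on day 3, S1pr2 by 0.37 ± 0.11 (adjusted p = 0.0451). Their medians against day 0 were 0.01 on day 3 and -0.14 on day 7.

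Vegfa is a textbook target of the hypoxia-inducible factors, so 15 genes of that system were read beside it. On PNX day 3, 2 rose and 1 fell against day 0, and on day 7, 1 rose and 1 fell. Egln3, an oxygen sensor that is itself induced by hypoxia, rose by 1.67 ± 0.20 on day 3 (adjusted p = 0.000160) and by 1.38 ± 0.20 on day 7 (adjusted p = 0.00142). Bnip3, a mitochondrial death and mitophagy gene, fell by 0.48 ± 0.13 and 0.52 ± 0.13, and Ndrg1 rose by 0.43 ± 0.11 on day 3. Against sham, 3 rose and 2 fell on day 3 and 1 rose and 1 fell on day 7. Adm, which encodes the vessel-active peptide adrenomedullin, was among those that fell, by 0.95 ± 0.19 on day 3 and 0.84 ± 0.19 on day 7. It was not called against day 0 on either day, and sham itself was above day 0 for Adm by 1.12 ± 0.19 (adjusted p = 0.0176). The list held members in both directions, with medians against day 0 of 0.15 on day 3 and -0.10 on day 7.

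Genes of sprouting and Notch signalling were also mixed. Of 15, 2 rose and 0 fell on PNX day 3 against day 0: Nid2, a basement membrane protein, by 0.83 ± 0.19 and Unc5b, a guidance receptor of tip cells, by 0.54 ± 0.16. On PNX day 7, Unc5b rose by 0.87 ± 0.16 and Aplnr, the apelin receptor, fell by 0.96 ± 0.24. Against sham, 1 rose and 2 fell on day 3, with Nid2 up by 0.79 ± 0.19 and Notch4 and Notch1 down (differences of -0.61 ± 0.16 and -0.52 ± 0.11). On day 7, 0 rose and 2 fell against sham, Aplnr by 1.02 ± 0.24 and Apln, its ligand, by 0.61 ± 0.15.

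Markers of the cells that carry these genes moved in the same days. Of 20 endothelial markers, 0 passed on PNX day 3 against day 0 and 2 fell on day 7, Myct1 by 0.62 ± 0.14 and Gpihbp1 by 0.50 ± 0.14. Against sham, 7 fell on day 3, led by Vwf, Eng and Robo4 (differences of -0.84 ± 0.23, -0.67 ± 0.18 and -0.67 ± 0.15), and 6 fell on day 7. Their mean level over the 3 arrays ran from 9.23 to 9.88 on PNX day 3 and from 9.47 to 9.96 on PNX day 7, against 9.76 to 10.10 on day 0 and 9.82 to 10.29 on sham day 56. Their median differences of -0.27 and -0.25 against day 0, and -0.45 and -0.41 against sham, were smaller in size than the members' medians. Of 10 pericyte markers, 1 rose on day 3 against day 0 (Kcnj8 by 0.67 ± 0.11) and 0 passed on day 7. Against sham, 1 rose and 2 fell on day 3 and 1 fell on day 7 (Pdgfrb by 0.79 ± 0.19). Of 9 markers of alveolar type I cells, which make VEGF-A, 2 fell in each of the 4 early comparisons, Rtkn2 by 0.75 ± 0.18 on day 3 and 0.87 ± 0.18 on day 7 against day 0. Of 5 markers of aerocytes, the gas-exchange capillary cells, 1 fell on each day against day 0, Fibin by 0.84 ± 0.17 and 0.85 ± 0.17, and 1 and 2 fell against sham.

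When each array was centred on the mean of its 20 endothelial markers, an alternative added after the data were seen, the median of all genes shifted to 0.26 and 0.24 on days 3 and 7 against day 0 and to 0.41 and 0.39 against sham. Differences on this scale are relative to endothelial markers. The share of all genes called on it was not counted, so the calls below have no such share beside them. Against day 0, Esm1 and Sphk1 remained called lower on day 3 (-0.62 ± 0.15 and -0.65 ± 0.16, adjusted p = 0.0148 and 0.0150), and Angpt2, Esm1 and Sphk1 on day 7 (-0.62 ± 0.15, -0.58 ± 0.15 and -0.82 ± 0.16, adjusted p = 0.0165, 0.0280 and 0.00462). Angpt2 on day 3 was -0.43 ± 0.15 (adjusted p = 0.0706) and Vegfa was -0.18 ± 0.12 and -0.20 ± 0.12 on the 2 days (adjusted p = 0.262 and 0.218). Kdr and Nrp1 were between -0.11 and 0.05 against day 0 on this scale, with none called. Against sham, Flt1, Tek, Angpt1, Angpt2 and Esm1 were called lower on both days, with Tek at -0.44 ± 0.13 and -0.43 ± 0.13 (adjusted p = 0.0131 and 0.0172). Vegfa at -0.02 ± 0.12 and -0.04 ± 0.12 and Sphk1 at -0.10 ± 0.16 and -0.28 ± 0.16 lost their calls against sham on both days, and Kdr on day 7 at -0.16 ± 0.12. Pgf was called higher on both, at 0.69 ± 0.17 and 0.51 ± 0.17 (adjusted p = 0.00435 and 0.0193). The medians of all genes there were 0.41 and 0.39, so much of the Pgf values is the shift of the scale. On the deposited scale Pgf had not passed.

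**Figure D4:**
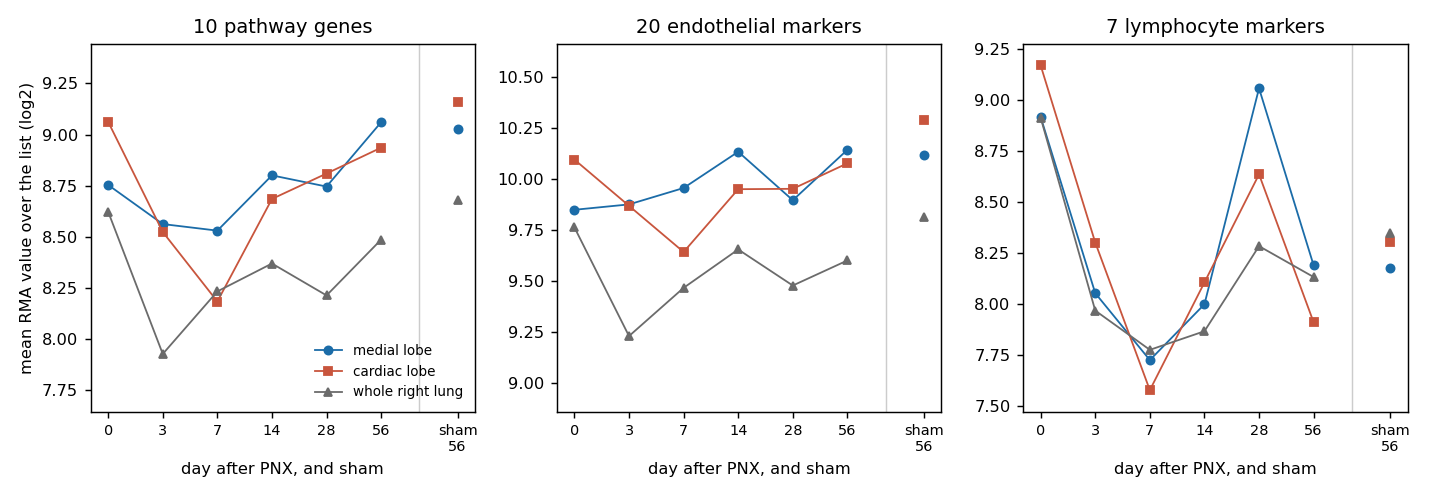
Mean RMA value (log2, vertical axis) of the 10 members, 20 endothelial markers and 7 lymphocyte markers on each array, by day after PNX and, right of the grey line, on sham day 56; points are single arrays and colours and shapes mark regions. The endothelial panel shows a smaller early dip than the member panel, and the lymphocyte markers are lower on all day 3 and day 7 arrays than on any day 0 array.

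Markers of other cells changed as well. Of 7 lymphocyte markers, 6 fell on PNX day 3 and 7 on PNX day 7 against day 0, and 0 and 4 against sham. Along the course their mean level was 8.91 to 9.17 on day 0, 7.97 to 8.30 on PNX day 3, 7.58 to 7.78 on PNX day 7, 7.87 to 8.11 on PNX day 14, 8.28 to 9.06 on PNX day 28 and 7.91 to 8.19 on PNX day 56. On sham day 56 it was 8.18 to 8.35. Sphk1, which immune cells also express, likewise had its lowest mean on PNX day 7 (7.19 ± 0.24, SD, n = 3) and its highest mean after surgery on PNX day 28 (8.04 ± 0.18, SD, n = 3), and the part of lymphocytes in its values was not tested. Myeloid markers rose in 3 of 9 cases on day 3 against day 0 and 0 on day 7, and in 4 cases on day 3 against sham, with 1 falling on day 7. Markers of dividing cells rose in 5 of 5 cases in each of the 4 early comparisons. Mesothelial markers rose in 4 of 5 cases on day 3 and 3 on day 7 against either reference, and 1 of 2 red cell markers rose on day 7 against day 0.

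The members also differed in which genes they ran with. Pearson correlations were taken over the 21 arrays after each region's mean was subtracted, as descriptions of arrays that share conditions, normalization and RNA composition. Flt1 and Tek had the highest correlation among members at 0.96, and Flt1 with Nrp1 and with Angpt1 followed at 0.93 and 0.92. Angpt2 and Esm1 were correlated at 0.80, and Esm1 and Sphk1 at 0.75. Sphk1 had correlations of 0.28 to 0.61 with the receptors and angiopoietins. Pgf, the dimmest member, lay between -0.40 and -0.06 with all other members.

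Over all genes except those with Gm or Rik symbols, the 3 nearest to each member called by the F test were as follows. Flt1 was nearest to Adcy4, Tek and Adgrf5 (0.96, 0.96 and 0.94), and Angpt1 to Itga8, Kit and Limch1 (0.96, 0.96 and 0.95). Vegfa was nearest to Nectin3, Stard13 and Cadm1 (0.93, 0.93 and 0.92), and Angpt2 to Lysmd2, Swap70 and Npw (0.89, 0.89 and 0.88). Esm1 was nearest to Ces1g, Kcnq5 and Trappc6b (0.91, 0.90 and 0.90), and Sphk1 to Cytip, H2-Ob and Pex10 (0.89, 0.89 and 0.89).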

How the data were processed

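RNA of the right lung was hybridised to 21 Affymetrix whole-transcript mouse gene arrays, all on 1 date per the labels. The deposited log2 values were made by the authors with RMA, per the submitters' processing notes; the sources used here do not give its version or settings. The protocol in the labels is for 3′ amplification of RNA, which is not the usual chemistry of this array type; the chemistry used could not be settled. The table held 35556 probe sets, of which the platform annotation names 21789 with 1 symbol, 1621 with several and 12146 with none. RefSeq names (GRCm38.p6) matched 21698 of the first. The brightest probe set stood for each of 19938 genes, 999 of which had several. Low values were not filtered, since the file holds no detection call, so all 10 members were tested.

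With limma 3.58.1 (R 4.3.3), 1 linear model with condition and region terms covered the 21 arrays, with empirical Bayes moderation (12 residual degrees of freedom). P-values are two-sided and Benjamini-Hochberg adjusted over all genes within each of 15 comparisons of conditions and of the region comparisons. Replicate numbers mark region (1 medial lobe, 2 cardiac lobe, 3 whole lung), which is the replicate block of the fit. The early response by region was fitted on region by phase means (day 0 and sham, days 3 and 7, days 14 to 56). No batch could be told from the labels. The number of arrays limits the precision.

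The members, lists, comparisons and rule for named genes were chosen with earlier results of these data known. The rule named all 10 members in every comparison; for the later days and steps the text gives part of them with values and the rest by counts and ranges. It also named from each pathway or marker list up to 3 called genes by size. For likeness it named the 3 genes with the highest correlation to each member called by the F test, passing over Gm and Rik symbols. Ccnb1 and 4 of 6 red cell markers matched no probe set with 1 symbol. The procedure was also run on simulated data with independent noise per gene and array, no region differences and no outlying arrays. That run does not bear on the sensitivity to single arrays. Alternatives are given in the closing section.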

Additional observations from a re-analysis of the deposited data

How the results depend on the processing

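The counts of members called were 6 across conditions, 4 on PNX day 3 and 4 on day 7 against day 0, and 7 and 8 against sham. They were most sensitive to the spread used. With no replicate block (no region term) they were 1, 1, 1, 0 and 0. With only the 6 arrays compared they were 0 and 1 on day 7 against day 0 and sham. With the single lobes alone they were 3 across conditions, 2 on day 3 against day 0 and 4 against sham. With dim genes left out, which removes 3 members (Angpt2, Esm1 and Pgf), 2 members were called on each day against day 0. Without the PNX day 7 cardiac and PNX day 56 whole lung arrays, 3 were called on day 7 against sham. With each array centred on its endothelial markers, 3 were called across conditions and 2 on day 3 against day 0. The share of all genes called on that scale was not counted. In the lobes against the whole lung, the higher level turned to -0.0855 for Vegfa and -0.156 for Sphk1 by the construction of that scale. Of the 8 calls there, 2 remained. Leaving out each array in turn gave 3 to 8 across conditions, 3 to 7 and 2 to 6 on days 3 and 7 against day 0, and 3 to 8 and 1 to 9 against sham. Of 33 called differences of members, 33 kept their call with probe sets of a gene averaged, every probe set tested, and a trend and robust prior, and 30 with each array centred on its median. There, Vegfa on day 7 was lost against both references, and Sphk1 between the lobes and the whole lung. Beyond fewer arrays or genes and the scale named, the cause of these changes was not tested.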
